A study of Homo sapiens with 6 samples.

Results

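The 7 genes described here are SNAI1, SNAI2, TWIST1, TWIST2, ZEB1, ZEB2 and PRRX1, the transcription factors best known for driving or keeping a mesenchymal state. They are a list of gene names, and all 7 were found by GENCODE symbol among the 32750 gene IDs of the table. The cells are LX-2, an immortalised human line derived from stellate cells, which deposit scar matrix in injured liver, and their RNA was sequenced from whole cultures. One group of 3 libraries is labelled as an ATP6AP1 transient knockdown, made by transfection of an siRNA against human ATP6AP1. The other group, also 3 libraries, was transfected with a non-targeting negative control siRNA and is labelled wild type. All 6 libraries come from the same cell line, so no donor differs between groups, and the submitters describe the replicates as independent and biological. The title calls the cells activated. The sources used here do not give the siRNA dose or sequences, the time after transfection or how the cells were activated.

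SNAI1 (SNAIL) and SNAI2 (SLUG) are zinc-finger repressors that bind E-box sequences and shut off E-cadherin. TWIST1 and TWIST2 are helix-loop-helix proteins that bind DNA as dimers with E proteins such as TCF3, TCF4 and TCF12. ZEB1 and ZEB2 carry zinc-finger clusters on either side of a homeodomain and recruit CTBP corepressors to E-boxes, and PRRX1 is a homeodomain factor of embryonic mesenchyme. Stellate cells are mesenchymal by origin, so these factors are part of a mesenchymal program that such cells already run.

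The 7 genes did not move together. In the libraries labelled ATP6AP1 siRNA, SNAI1 was 2.98-fold higher than in control siRNA libraries, while ZEB2, ZEB1 and TWIST2 were 1.81-fold, 1.67-fold and 1.54-fold lower. SNAI2 and TWIST1 had folds of 1.04 and 0.966 and did not pass the test, and PRRX1 had at most 2 counts in any library. Of the 6 genes with enough counts to be tested, 1 rose, 3 fell and 2 did not pass. Of all 15372 genes tested in that comparison, 53.3% changed, 26.7% toward higher and 26.6% toward lower (4110 and 4083 genes with TMM scaling, 5618 and 2733 with library size alone), so a share of this size among these factors is not in itself a result about them. CPM values of the groups did not overlap for 4 of the 6, the same 4 genes, against 59.5% of all tested genes (29.8% toward higher and 29.7% toward lower). The median log2 fold change was -0.34 over the 6 tested factors and -0.004 over all tested genes. RNA of a whole culture was measured, so fewer cells holding a transcript and less of it per cell cannot be told apart.

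The siRNA target itself goes against its label. ATP6AP1, an accessory subunit of the proton pump of lysosomes, stood at 144, 146 and 140 CPM in the libraries labelled ATP6AP1 siRNA, against 116, 117 and 129 CPM in control siRNA libraries (CPM, read counts scaled to a common library size with TMM). It was 1.19-fold higher (log2 fold change 0.25, edgeR quasi-likelihood test, Benjamini-Hochberg adjusted p = 0.00425). The log2 fold change was 0.38 with library size alone and 0.18 with each library's trend on gene span removed (edgeR adjusted p = 0.0281). Against a fold of 1.2 the rise did not pass (edgeR adjusted p = 0.591). ATP6AP1 was not lower in any of these settings. Every direction given here is therefore that of the libraries labelled ATP6AP1 siRNA, not of a measured depletion. Total counts were 15644464 to 17880546 in those libraries and 17700222 to 19656533 in control siRNA libraries. Of 11 stellate cell markers in the table, 8 passed the filter on low counts. COL1A1, ACTA2 and PDGFRB were present, whereas the filament protein DES had 2 to 11 counts and the proteoglycan LUM 0 to 3 counts per library. The summed level of the 11 was 617 to 816 CPM in libraries labelled ATP6AP1 siRNA and 1067 to 1182 CPM in control siRNA libraries, most of it COL1A1. Of the 8 tested, 5 fell and 2 rose (HAND2 and NGFR), against 26.6% lower and 26.7% higher of all tested genes. The HAND2 call was lost in DESeq2 (adjusted p = 0.174). NGFR, the low-affinity neurotrophin receptor, was 5.96-fold higher (edgeR adjusted p = 6.53e-09). It stood at 62.6 ± 6.83 CPM in libraries labelled ATP6AP1 siRNA and 10.5 ± 1.77 CPM in control siRNA libraries (SD, n = 3 each). Several defining genes of other liver cells were near 0, with 0 to 2 counts of albumin, 1 to 7 of EPCAM, 2 to 11 of PECAM1 and 3 to 12 of PTPRC per library. Other genes of those marker lists were present, with means of 89.6 CPM of TIE1, 6.81 CPM of KDR and 27.4 CPM of SOX9 in libraries labelled ATP6AP1 siRNA, and of 105, 2.40 and 24.4 CPM in control siRNA libraries.

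**Figure D1:**
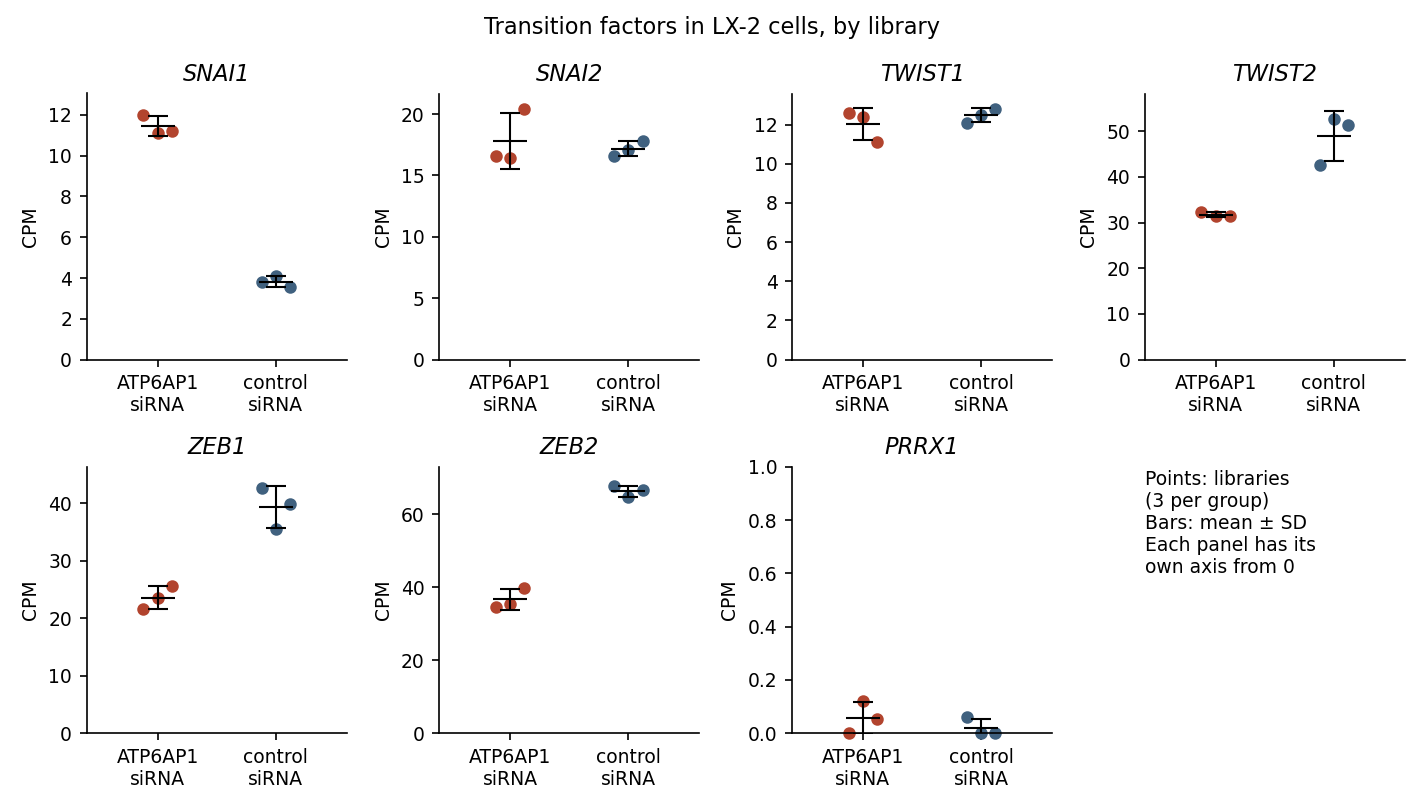
Level of each factor in CPM (vertical axis, from 0, its own range in each panel) in 3 libraries labelled ATP6AP1 siRNA (left, red) and 3 control siRNA libraries (right, blue), with bars for the mean and SD. SNAI1 lies at 11.1 to 12 CPM on the left and 3.56 to 4.08 CPM on the right, TWIST2, ZEB1 and ZEB2 are lower on the left without overlap, SNAI2 and TWIST1 overlap, and PRRX1 is close to 0 in both groups.

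SNAI1, which TGF-beta, growth factor and inflammatory signals can induce, was the only one of the 6 tested factors that rose. SNAI1 (ENSG00000124216, chromosome 20, 49982980 to 49988886 on GRCh38, plus strand, protein-coding) had 198, 184 and 208 counts in libraries labelled ATP6AP1 siRNA, against 65, 76 and 60 counts in control siRNA libraries. Scaled to library size these were 12, 11.1 and 11.2 CPM in libraries labelled ATP6AP1 siRNA and 3.83, 4.08 and 3.56 CPM in control siRNA libraries. The lowest library labelled ATP6AP1 siRNA lay far above the highest control library, and the spread within each group was small. The mean was 11.4 ± 0.5 CPM against 3.82 ± 0.260 CPM in control siRNA libraries (SD, n = 3 each). The log2 fold change was 1.58 (SE 0.127, edgeR adjusted p = 5.16e-07), a fold of 2.98 with a 95% confidence interval from 2.46 to 3.61.

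SNAI2, its paralog and also a repressor of E-cadherin, did not pass the test. SNAI2 (ENSG00000019549, chromosome 8, 48917598 to 48921740, minus strand) stood at 16.6, 16.4 and 20.4 CPM in libraries labelled ATP6AP1 siRNA and at 16.6, 17.1 and 17.8 CPM in control siRNA libraries. The groups overlapped, and replicate 3 of the libraries labelled ATP6AP1 siRNA was the highest of the 6. The log2 fold change was 0.06 (SE 0.1, edgeR adjusted p = 0.670), with a 95% confidence interval of the fold from 0.894 to 1.21, and without that library it was -0.06.

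Within a library, SNAI1 stood at 0.558 to 0.731 of the SNAI2 level in libraries labelled ATP6AP1 siRNA, against 0.222 to 0.260 of it in control siRNA libraries (CPM + 0.5). Library scaling enters this ratio only through the 0.5 added to each value. It was 2.68-fold higher in the libraries labelled ATP6AP1 siRNA, without overlap (exact two-sided permutation test, p = 0.1, the smallest that 3 against 3 libraries allow, and 0.15 adjusted over 3 paralog ratios).

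TWIST1, the helix-loop-helix factor of cranial and limb mesenchyme, did not pass the test. TWIST1 (ENSG00000122691, chromosome 7, 19020991 to 19117636, minus strand) stood at 12.6, 12.4 and 11.1 CPM in libraries labelled ATP6AP1 siRNA and at 12.1, 12.5 and 12.8 CPM in control siRNA libraries. The groups overlapped, with a log2 fold change of -0.05 (SE 0.0991, edgeR adjusted p = 0.696) and an interval of the fold from 0.832 to 1.12. Its sign turned with the scaling, to 0.09 with library size alone and to 0.03 once each library's trend on gene span was removed. The annotated span is 96.6 kb, but that of the MANE Select transcript is 2.17 kb. With the trend on the MANE Select span removed, the value was -0.0096 and the sign did not turn.

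TWIST2 (DERMO1), which is close to TWIST1 in its DNA-binding part and marks dermal and other fibroblasts, fell. TWIST2 (ENSG00000233608, chromosome 2, 238848032 to 238910534, plus strand) stood at 32.3, 31.4 and 31.5 CPM in libraries labelled ATP6AP1 siRNA, against 42.6, 52.6 and 51.4 CPM in control siRNA libraries. The groups did not overlap, and the control siRNA libraries were the more spread, with replicate 1 the lowest of them. The log2 fold change was -0.62 (SE 0.0849, edgeR adjusted p = 4.63e-05), 1.54-fold lower with a 95% confidence interval from 1.36 to 1.75. The ratio of TWIST1 to TWIST2 was 0.362 to 0.405 in libraries labelled ATP6AP1 siRNA and 0.244 to 0.293 in control siRNA libraries, 1.47-fold higher without overlap (exact permutation p = 0.1, adjusted p = 0.15 over the 3 ratios).

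ZEB1 and ZEB2, the zinc-finger homeodomain repressors, both fell. ZEB1 (ENSG00000148516, chromosome 10, 31318495 to 31529814, plus strand) stood at 21.6, 23.5 and 25.6 CPM in libraries labelled ATP6AP1 siRNA, against 42.7, 35.5 and 39.9 CPM in control siRNA libraries. ZEB2 (ENSG00000169554, chromosome 2, 144364364 to 144521057, minus strand) stood at 34.6, 35.4 and 39.9 CPM in libraries labelled ATP6AP1 siRNA, against 67.6, 64.6 and 66.5 CPM in control siRNA libraries. Neither gene overlapped between groups, and in both the highest of the lowered libraries was replicate 3.

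ZEB1 had a log2 fold change of -0.74 (SE 0.0902, edgeR adjusted p = 1.85e-05), 1.67-fold lower with an interval from 1.46 to 1.91. ZEB2 had a log2 fold change of -0.85 (SE 0.0718, edgeR adjusted p = 7.50e-07), 1.81-fold lower with an interval from 1.62 to 2.01. The ratio of ZEB1 to ZEB2 was 0.632 to 0.669 in libraries labelled ATP6AP1 siRNA and 0.552 to 0.634 in control siRNA libraries, which overlap (difference of log2 ratios 0.12, exact permutation p = 0.2, adjusted p = 0.2 over the 3 ratios). Both are long genes, spanning 211 and 157 kb against a median of 30.8 kb over tested genes. With each library's trend on gene span removed, ZEB1 was 1.34-fold lower (log2 fold change -0.43, adjusted p = 0.00116) and ZEB2 1.55-fold lower (-0.63, adjusted p = 7.37e-06). Both stayed past the test, as they did in 18 of 18 alternatives, with adjusted p up to 0.00224 for ZEB1 and 3.17e-05 for ZEB2.

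**Figure D2:**
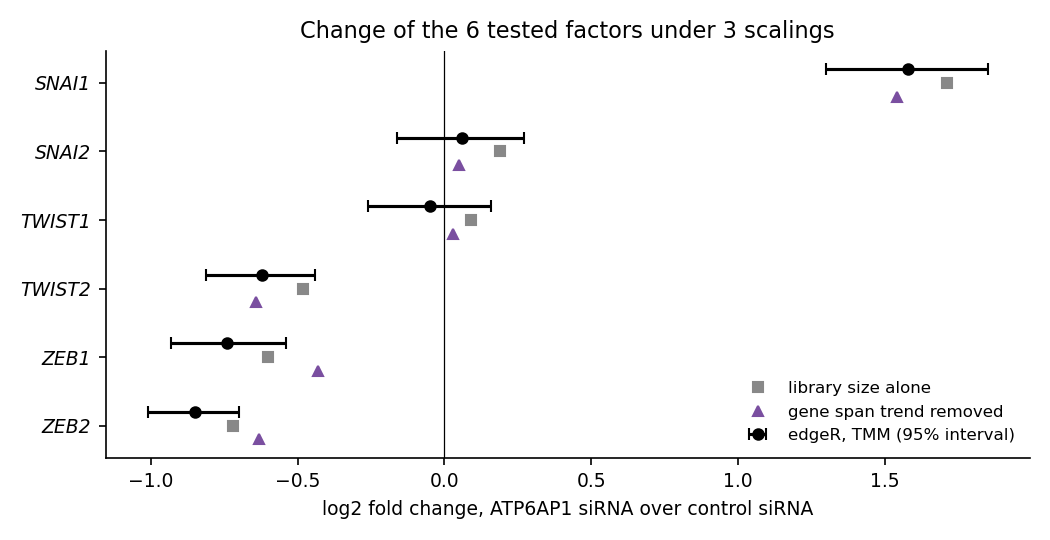
Log2 fold change (horizontal axis) of the 6 tested factors, libraries labelled ATP6AP1 siRNA over control siRNA libraries. Black points with 95% intervals are the edgeR fit with TMM scaling, grey squares use library size alone and purple triangles have the trend on gene span removed. SNAI1 stays near 1.58, TWIST2, ZEB1 and ZEB2 stay below 0 with ZEB1 at -0.74 under TMM scaling and at -0.43 with the span trend removed, and SNAI2 and TWIST1 stay near 0, where TWIST1 changes sign.

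The start regions of the 3 lowered factors are shown because SNAI and ZEB zinc fingers bind E-boxes of the form CAGGTG. RefSeq start windows (GRCh38.p14, 250 bases before to 50 after the start) were matched by symbol for 4 of the 7 genes, and the window of the MANE Select start, the agreed reference transcript, is printed. SNAI1, SNAI2 and TWIST1 had no entry. Capitals mark CAGGTG or its reverse complement CACCTG, 5′ to 3′ on the gene's strand.
ZEB1 chr10:31318966-31319265, plus strand: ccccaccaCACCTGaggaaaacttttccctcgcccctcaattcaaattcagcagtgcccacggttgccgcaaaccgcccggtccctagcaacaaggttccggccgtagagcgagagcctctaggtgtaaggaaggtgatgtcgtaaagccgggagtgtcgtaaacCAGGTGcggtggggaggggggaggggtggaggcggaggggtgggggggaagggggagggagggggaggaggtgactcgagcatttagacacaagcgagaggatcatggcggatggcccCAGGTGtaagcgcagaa
ZEB2 chr2:144520070-144520369, minus strand: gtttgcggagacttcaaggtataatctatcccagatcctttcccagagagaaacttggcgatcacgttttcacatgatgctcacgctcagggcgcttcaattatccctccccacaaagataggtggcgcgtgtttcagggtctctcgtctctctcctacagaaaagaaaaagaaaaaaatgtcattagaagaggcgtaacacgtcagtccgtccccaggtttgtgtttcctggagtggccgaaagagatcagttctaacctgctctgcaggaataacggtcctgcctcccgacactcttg
TWIST2 chr2:238847835-238848134, plus strand: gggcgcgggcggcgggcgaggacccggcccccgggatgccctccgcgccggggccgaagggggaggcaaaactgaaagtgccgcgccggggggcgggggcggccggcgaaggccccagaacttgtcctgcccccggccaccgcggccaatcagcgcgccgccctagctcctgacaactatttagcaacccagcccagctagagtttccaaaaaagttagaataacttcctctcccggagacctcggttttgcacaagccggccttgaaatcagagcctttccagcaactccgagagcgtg
The ZEB1 window held 3 matches, whose first bases lie at -242, -85 and 33, counting the start base as 0, and the ZEB2 and TWIST2 windows held 0 matches. Of the 6 other ZEB1 start windows in the table, 1 held 1 match and 5 held 0. Of 35116 start windows of this length in the table, 20.6% held at least 1 match on either strand and 0.635% at least 3. The match is a description of the letters, and binding was not measured.

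Reads of neighbouring transcripts were also counted. ZEB1-AS1, a noncoding RNA read from the opposite strand across the ZEB1 start, had 38, 33 and 55 counts in libraries labelled ATP6AP1 siRNA and 60, 55 and 53 counts in control siRNA libraries. It overlapped between groups and did not pass the test (log2 fold change -0.40, edgeR adjusted p = 0.125), and it is small beside the 357 to 476 and 661 to 725 counts of ZEB1 in the same groups. ZEB2-AS1 had 2, 0 and 0 counts in libraries labelled ATP6AP1 siRNA and 0 in each control siRNA library. The sources used here do not say whether the counting used strand, so reads of a gene and its antisense partner cannot be told apart. Of the 50-base windows of the 7 genes' transcripts, 0% occur in transcripts of other genes for 6 of them and 0.314% for ZEB2.

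PRRX1, which marks mesenchymal progenitors, was not measurable. PRRX1 (ENSG00000116132, chromosome 1, 170662728 to 170739421, plus strand) had 0, 2 and 1 counts in libraries labelled ATP6AP1 siRNA and 1, 0 and 0 counts in control siRNA libraries. It did not pass the filter on low counts, and no difference was detectable at this depth.

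Levels were put on one scale by dividing CPM by the length of the MANE Select transcript, which assumes that this isoform is the one read. In the libraries labelled ATP6AP1 siRNA, TWIST2 led at 23.7 ± 0.367 CPM per kb, followed by SNAI2 at 8.17 ± 1.03, TWIST1 at 7.38 ± 0.520 and SNAI1 at 6.70 ± 0.293. ZEB1 at 3.97 ± 0.330 and ZEB2 at 3.95 ± 0.311 CPM per kb came last of the tested genes (SD, n = 3 each). In the control siRNA libraries TWIST2 again led, at 36.4 ± 4.07 CPM per kb, followed by SNAI2 at 7.88 ± 0.275, TWIST1 at 7.64 ± 0.193, ZEB2 at 7.15 ± 0.161 and ZEB1 at 6.63 ± 0.611. SNAI1 came last of the tested genes there, at 2.24 ± 0.153 CPM per kb. Libraries of SNAI2 and TWIST1 overlapped in both groups, as did those of ZEB1 and ZEB2. In the libraries labelled ATP6AP1 siRNA those of TWIST1 and SNAI1 overlapped too, so the order of these neighbours is not set.

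**Figure D3:**
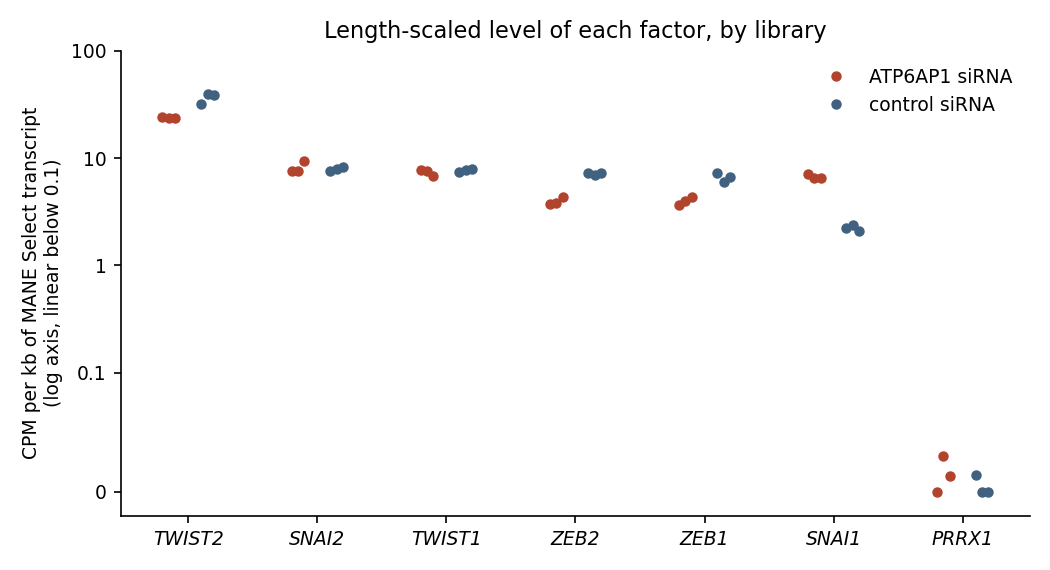
Level of each factor in CPM per kb of MANE Select transcript (vertical log axis, linear below 0.1), libraries labelled ATP6AP1 siRNA in red on the left and control siRNA libraries in blue on the right of each gene. TWIST2 is highest in both groups, and SNAI1 is below ZEB1 and ZEB2 in control siRNA libraries but above them in libraries labelled ATP6AP1 siRNA.

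**Figure D4:**
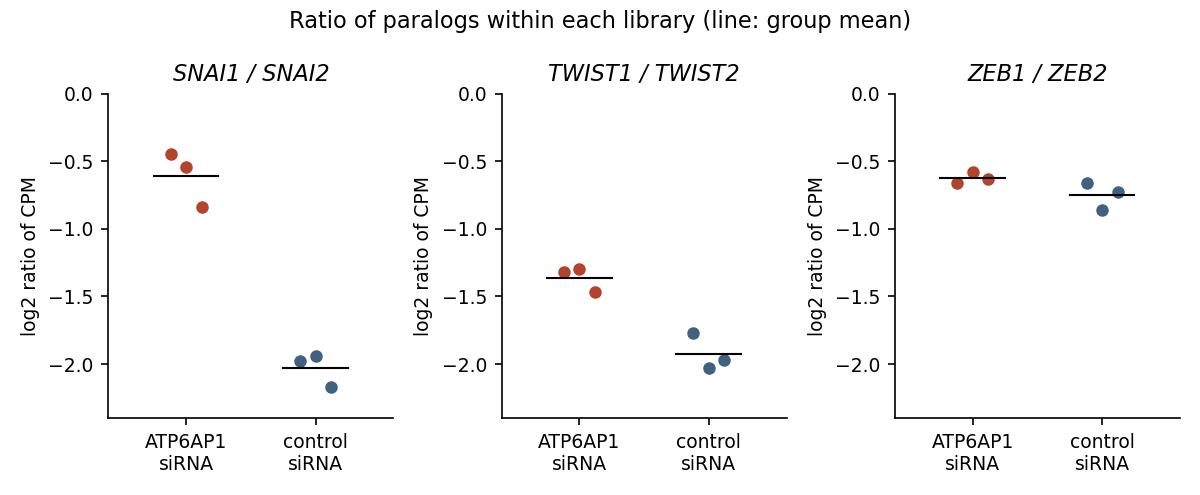
Log2 ratio of the CPM of each pair of paralogs within a library (vertical axis), for 3 libraries labelled ATP6AP1 siRNA (left) and 3 control siRNA libraries (right), with a line at the group mean. SNAI1 over SNAI2 has means of -0.61 and -2.03 and TWIST1 over TWIST2 means of -1.37 and -1.92, without overlap, whereas ZEB1 over ZEB2 has means of -0.63 and -0.75, with overlap.

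The genes whose profile over the 6 libraries lay nearest to each changed factor were found among 10883 protein-coding genes with a mean of at least 5 CPM. Nearness was the root mean square difference of centred log2 values, taken over libraries that also differ by group. For SNAI1 these were CDKN2B (a cell cycle inhibitor, difference 0.0686), CGAS (a DNA sensor, 0.0703) and SLC3A2 (an amino acid transporter subunit, 0.0725). For TWIST2 they were CCN2 (a matricellular protein, 0.0380), NF2 (the Hippo regulator merlin, 0.0425) and FOXL1 (a mesenchymal forkhead factor, 0.0450). For ZEB1 they were MRPL24 (0.0345), ADGRL2 (0.0374) and SYT1 (0.0449), and for ZEB2 they were RFTN1 (0.0204), ERBIN (0.0285) and DDAH1 (0.0324). ADGRL2 and SYT1, which span 688 and 588 kb, were at log2 fold changes of -0.04 and -0.13 with the span trend removed, where their calls were lost (adjusted p 0.820 and 0.369). With the MANE Select span, ADGRL2 was at -0.38 and past the test (adjusted p = 0.0203) and SYT1 at -0.09 and not past it (adjusted p = 0.542). With the gene span trend removed, RFTN1, ERBIN and DDAH1 were at -0.53, -0.52 and -0.50. With the MANE Select span they were at -0.50, -0.56 and -0.65, past the test in both settings.

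The partners of these factors differed in direction. Of 19 E proteins and corepressor subunits tested, 10 fell, 5 rose (EZH2, RCOR1, SETDB1, PRMT5 and WTIP) and 4 did not pass, with a median log2 fold change of -0.23 against -0.004 over all tested genes, of which 53.3% passed, 26.7% higher and 26.6% lower. The split depends on the setting. Library size alone gave 6 raised and 5 lowered, whereas DESeq2 size factors gave the same 5 raised and 10 lowered as TMM. Against a fold of 1.2, a stricter test with TMM scaling, 4 were raised and 4 lowered. TCF4, an E protein that pairs with TWIST proteins, stood at 8.43, 7.97 and 7.30 CPM in libraries labelled ATP6AP1 siRNA, against 14.7, 14.5 and 19.0 CPM in control siRNA libraries. It was 2.04-fold lower without overlap (log2 fold change -1.03, edgeR adjusted p = 1.97e-05). TCF12, another E protein, was 1.6-fold lower (-0.68, edgeR adjusted p = 1.09e-05), and TCF3 1.22-fold lower (-0.29, edgeR adjusted p = 0.0255) with overlapping groups.

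CTBP2, the corepressor that ZEB proteins recruit, stood at 43.1, 41.6 and 43.9 CPM in libraries labelled ATP6AP1 siRNA, against 71.6, 81.5 and 72.9 CPM in control siRNA libraries. CTBP2 spans 177 kb and was 1.76-fold lower before any removal of the span trend (edgeR adjusted p = 8.85e-07). AJUBA, a LIM protein that bridges SNAI1 to corepressors, was 1.54-fold lower. EZH2, the H3K27 methyltransferase, was 1.6-fold higher (edgeR adjusted p = 7.40e-06). With the trend on gene span removed, TCF4 was at a log2 fold change of -0.49 and TCF12 at -0.19, at -0.16 and not past the test (adjusted p = 0.0929) when the span of the MANE Select transcript was used. With library size alone the TCF3 call was lost (adjusted p = 0.231), as it was without control siRNA replicates 2 or 3 or replicates 2 or 3 labelled ATP6AP1 siRNA (adjusted p 0.0511 to 0.174).

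Other transcription factors of mesenchymal transition split. Of 13 tested, 6 rose (among them TBX2, FOXC1, TBX3 and SOX4), 4 fell (HMGA2, RUNX1, FOSL1 and RUNX2) and 3 did not pass. The list's median log2 fold change was 0.17, against -0.004 over all tested genes, of which 26.7% rose and 26.6% fell. HMGA2, a chromatin protein that can induce SNAI1 and TWIST1 downstream of TGF-beta, stood at 10.8, 9.48 and 11.1 CPM in libraries labelled ATP6AP1 siRNA, against 30.3, 34.3 and 31.7 CPM in control siRNA libraries. It was 3.07-fold lower without overlap (log2 fold change -1.62, edgeR adjusted p = 3.28e-08). HMGA2 spans 142 kb, and this fold is from before any removal of the span trend. TBX2, a T-box repressor, stood at 58.7, 52.2 and 40.5 CPM in libraries labelled ATP6AP1 siRNA, against 21.5, 24.6 and 26.2 CPM in control siRNA libraries. It was 2.09-fold higher (edgeR adjusted p = 1.06e-05), and FOSL1, an AP-1 subunit, was 1.34-fold lower (edgeR adjusted p = 4.13e-05). RUNX1 was 1.98-fold lower, but its annotated span is 1217 kb, and with the span trend removed it was at -0.16 and not past the test (adjusted p = 0.0681), or at -0.56 and past it with the MANE Select span. With the gene span trend removed 2 of the list fell in place of 4.

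The related family members were at the limit of detection. SNAI3 had 3 to 7 counts and PRRX2 5 to 10 counts per library, and only SCX and HAND2 of the 7 relatives matched could be tested. HAND2, a stellate lineage factor, was at 1.42 ± 0.256 CPM in libraries labelled ATP6AP1 siRNA and 0.784 ± 0.137 CPM in control siRNA libraries (SD, n = 3 each). Its log2 fold change of 0.85 passed the test (edgeR adjusted p = 0.0289), but not without control siRNA replicate 2 or 3 or replicate 1 or 2 labelled ATP6AP1 siRNA (adjusted p 0.0629 to 0.133), nor in DESeq2 (adjusted p = 0.174). Without control siRNA replicate 1, SCX also passed.

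Upstream regulators differed in direction. Of 20 receptors and signal-activated factors tested, 9 fell, 6 rose and 5 did not pass, against 26.6% lower and 26.7% higher of all tested genes. The list's median log2 fold change was -0.15 against -0.004 over all tested genes. EGR1, an immediate early factor that binds the SNAI1 promoter, stood at 117, 108 and 97.0 CPM in libraries labelled ATP6AP1 siRNA, against 20.5, 29.4 and 27.6 CPM in control siRNA libraries, 4.15-fold higher (edgeR adjusted p = 2.42e-08). The NF-kB subunits NFKB1 and RELA, NOTCH1, LEF1 and STAT3 were the other raised members. SMAD3, the TGF-beta effector, spans 131 kb and was 2.25-fold lower before any removal of the span trend. TEAD1, the DNA-binding partner of YAP, was 2.08-fold lower. Its log2 fold change was -0.67 in place of -1.06 once the span trend was removed.

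A further list held 23 enzymes, ubiquitin ligase adaptors and related proteins that set the stability of SNAIL, SLUG, TWIST or ZEB proteins. Of these 23, 9 fell, 2 rose (USP37 and FBXO45) and 12 did not pass (median log2 fold change -0.11, and -0.004 over all tested genes). Of all tested genes 53.3% passed, 26.7% higher and 26.6% lower, so the 11 that passed are no sign of a change particular to this list. GSK3B, the kinase that marks SNAIL for destruction, stood at 61.5, 55.4 and 60.2 CPM in libraries labelled ATP6AP1 siRNA, against 111, 110 and 111 CPM in control siRNA libraries. It was 1.88-fold lower (log2 fold change -0.91, edgeR adjusted p = 1.28e-07), and its log2 fold change was -0.51 with the span trend removed. FBXO11, a ubiquitin ligase adaptor for SNAIL, was 1.47-fold lower, and USP37, a deubiquitinase, 1.86-fold higher (edgeR adjusted p = 7.56e-07). FBXO11 and USP37 span 117 and 118 kb, and both folds are from before any removal of the span trend. With library size alone 5 of the list rose and 6 fell, and with the span trend removed 4 rose. Protein was not measured.

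Mesenchymal genes that rise in a mesenchymal transition were lower. Of 23 tested, 20 fell, 0 rose in edgeR (0 also at an unadjusted p under 0.05, and 0 in DESeq2 and limma-voom) and 3 did not pass (FN1, MMP2 and S100A4). Fibronectin, FN1, was at a log2 fold change of -0.15 (edgeR adjusted p = 0.0636), and passed without control siRNA replicate 1 (adjusted p = 0.0452), in DESeq2 (0.0464) and with no filter (0.0478). FN1 did not pass in the remaining alternatives. Among these it was at -0.0087 with library size alone (adjusted p = 0.916) and at -0.06 without control siRNA replicate 3 (adjusted p = 0.275). The list's median log2 fold change was -0.67 against -0.004 over all tested genes, of which 26.6% fell. Like the other lists, it was chosen with earlier results of these data known, so its count is a description only. N-cadherin, CDH2, the adhesion molecule that takes the place of E-cadherin, stood at 74.6, 78.5 and 85.9 CPM in libraries labelled ATP6AP1 siRNA, against 136, 131 and 137 CPM in control siRNA libraries. CDH2 was 1.69-fold lower without overlap (log2 fold change -0.76, edgeR adjusted p = 8.86e-07), and with the span trend removed it was at -0.40 and still past the test. NT5E, the mesenchymal surface enzyme CD73, was 2.04-fold lower, SPARC 2.02-fold lower and vimentin (VIM) 1.70-fold lower.

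Many epithelial genes were too low to test. E-cadherin, CDH1, had 1, 0 and 2 counts in libraries labelled ATP6AP1 siRNA and 4, 2 and 2 counts in control siRNA libraries, too few to test, and 8 other junction or epithelial genes were also below the filter. Of 15 epithelial targets tested, 2 rose (CLDN1 and LLGL2), 4 fell (KRT18, KRT8, PKP2 and OCLN) and 9 did not pass, with a median log2 fold change of -0.29. Of all tested genes 26.7% rose and 26.6% fell. CLDN1, a tight junction claudin, was 1.45-fold higher, at 17.5 ± 1.42 CPM in libraries labelled ATP6AP1 siRNA and 12.1 ± 0.661 CPM in control siRNA libraries (SD, n = 3 each, edgeR adjusted p = 0.000486). KRT18, the simple-epithelium keratin, was 1.77-fold lower, although 15% of its 50-base windows occur in other transcripts.

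Of 4 tested regulators of the epithelial state, KLF4, ELF3 and GRHL1 rose and FOXA1 did not pass, against 26.7% raised of all tested genes. With a minimum of 5 CPM in 3 libraries 1 of them rose, as fewer were tested. KLF4 stood at 22.9, 23.2 and 20.1 CPM in libraries labelled ATP6AP1 siRNA, against 9.07, 11.1 and 13.3 CPM in control siRNA libraries, 1.98-fold higher (edgeR adjusted p = 2.37e-05). ELF3 remained low, at 1.89 ± 0.130 CPM in libraries labelled ATP6AP1 siRNA and 0.324 ± 0.146 CPM in control siRNA libraries (edgeR adjusted p = 5.19e-05). The GRHL1 call (log2 fold change 0.59, edgeR adjusted p = 0.0180) was lost without control siRNA replicate 2 (adjusted p = 0.0817) or replicate 2 labelled ATP6AP1 siRNA (adjusted p = 0.0684) and in DESeq2 (adjusted p = 0.0783). The epithelial splicing regulator ESRP2 had 4 to 14 counts per library.

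**Figure D5:**
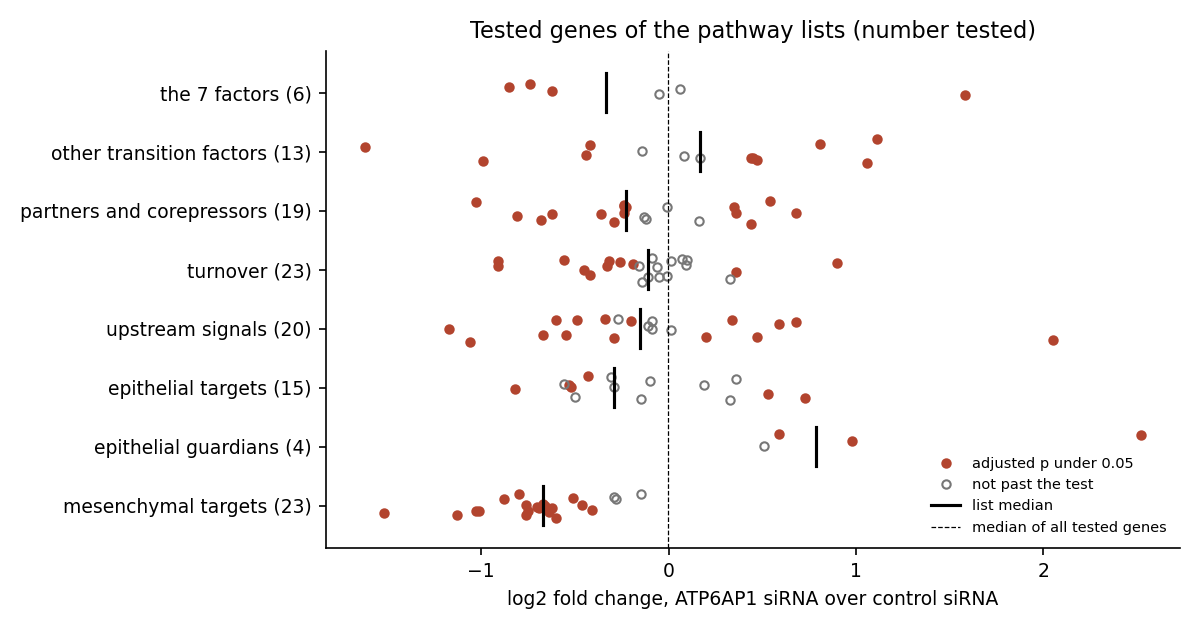
Log2 fold change (horizontal axis), libraries labelled ATP6AP1 siRNA over control siRNA libraries, of each tested gene in the 7 factors and in 7 pathway lists, with filled points past an adjusted p of 0.05, a bar at each list's median and a dashed line at the median of all tested genes. The mesenchymal targets lie below 0 with a median of -0.67, while the other lists with over 4 tested genes spread to both sides.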

How the data were processed

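mRNA enriched on oligo(dT) beads was sequenced as paired ends, per the labels' protocols. The authors deposited 1 table of expected counts (estimated counts) per Ensembl gene. Between 12.3 and 13.9% of its genes, by library, have fractional values. Tools in the submitters' processing notes are HISAT2, featureCounts, Trimmomatic, FastQC and DESeq2, with GRCh38 and no role or version. The sources used here do not give the annotation, strand setting or use of multiply mapped reads. The planned tests were for whole counts, so values were rounded first.

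Samples were grouped by title and columns matched by library name. Symbols and coordinates came from GENCODE release 44 (GRCh38), which holds 28456 of the 32750 IDs, 21947 of them with a symbol. Genes were kept with filterByExpr and tested with edgeR 4.0.16 (quasi-likelihood F test, two-sided, TMM, group as the only term, Benjamini-Hochberg over 15372 genes, threshold 0.05) in R 4.3.3. No pair of replicate libraries was a duplicate (chi-square per gene at least 3.66). The labels give no batch, and p-values measure the spread between these libraries. Lists are described by counts and medians, with no set test, and the code was tested on simulated data.

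The members and gene lists were chosen with earlier results of these data known. Named genes were the members, ATP6AP1, CDH1, CDH2, VIM, FN1, 3 E proteins, 2 antisense RNAs, genes overlapping a member, up to 4 genes of each list with the lowest adjusted p, the 2 most abundant of each marker list, and the 3 nearest profiles of each changed member. A gene that the rule picked is not reported here. Genes outside this rule are named where few made up a count or where they define a cell type. Alternatives were DESeq2 size factors, library size alone, no filter, 5 CPM in 3 libraries, DESeq2 1.42.0, limma-voom (limma 3.58.1), a replicate block, each library left out, an adjusted p of 0.01, a fold of 1.2, removal of the gene span trend (lowess, span 0.3), unrounded values and, for the ratios, a pseudocount of 2. Removal of the trend on MANE Select span was added after the data were seen.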

Additional observations from a re-analysis of the deposited data

How the results depend on the processing

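SNAI1, TWIST2, ZEB1 and ZEB2 kept their direction and their call in each of 18 alternatives. Against a fold of 1.2, 4636 genes passed in place of 8193. Library size alone raised the log2 fold change of the median gene by 0.14 and gave 5618 raised and 2733 lowered genes, against 4110 and 4083 with TMM. TWIST1 then changed sign to 0.09, as it did to 0.03 with the gene span trend removed, but not with the MANE Select span (-0.0096). With 1 library left out, TWIST1 ranged from -0.08 to 0.0085 and SNAI2 from -0.06 to 0.11, neither past the test.

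With the replicate block 7195 genes and 4 of the 7 factors passed, and the calls of TCF3 and HAND2 were lost (adjusted p 0.0650 and 0.0517). Same-numbered libraries did not deviate together (correlations -0.0879, -0.0291 and -0.102 for numbers 1 to 3), and different-numbered pairs were at -0.01 to 0.0974. No pairing by number was seen, though a weak one could be missed. Taken within number, the mean differences of the paralog ratios are by arithmetic those of the group means (1.42, 0.56 and 0.12 on the log2 scale), and so are no separate check.

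The counts behind SNAI1 in control siRNA libraries, 60 to 76, set its precision, and those of PRRX1 and CDH1 allow no comparison.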

Other observations

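Among the 6 tested factors, the make-up by length-scaled level differed between groups. SNAI1 made up 13.1, 12.3 and 12% of the summed CPM per kb in libraries labelled ATP6AP1 siRNA and 3.53, 3.42 and 2.97% in control siRNA libraries. TWIST2 made up 42.8 to 44.7% in libraries labelled ATP6AP1 siRNA and 49.9 to 55.9% in control siRNA libraries. The summed CPM of the 6 was 130, 130 and 140 in libraries labelled ATP6AP1 siRNA and 185, 186 and 192 in control siRNA libraries.

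Marker lists of other cell types had summed levels of 8.33 to 9.13 CPM in libraries labelled ATP6AP1 siRNA and 9.83 to 11.6 CPM in control siRNA libraries for hepatocytes, with 1 of 2 tested genes lower (SERPINA1). For bile duct cells they were 32.3 to 40.2 CPM in libraries labelled ATP6AP1 siRNA and 30.4 to 35.7 CPM in control siRNA libraries, with SOX9 the most abundant and SPP1 lower (log2 fold change -0.51, edgeR adjusted p = 0.0419). The SPP1 call was lost with library size alone (adjusted p = 0.123), in DESeq2 (0.190) and without any 1 library other than replicate 3 labelled ATP6AP1 siRNA (adjusted p 0.0583 to 0.143). For endothelial cells they were 90.4 to 102 CPM in libraries labelled ATP6AP1 siRNA and 96.9 to 123 CPM in control siRNA libraries, most of it TIE1, which was lower (log2 fold change -0.22, edgeR adjusted p = 0.0433). That call was lost with library size alone (adjusted p = 0.425) and without replicate 2 or 3 of either group (adjusted p 0.0714 to 0.310). KDR, an endothelial receptor, rose, at 6.81 ± 1.2 CPM in libraries labelled ATP6AP1 siRNA and 2.40 ± 0.198 CPM in control siRNA libraries (SD, n = 3 each, edgeR adjusted p = 1.76e-05). For macrophages they were 3.17 to 4.49 CPM in libraries labelled ATP6AP1 siRNA and 4.21 to 4.83 CPM in control siRNA libraries, most of it CD14. The part of these differences in the results was not tested.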
